A study of Homo sapiens with 9 samples.

Results

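The fibrillin, elastin and microfibril genes followed here are 10 genes taken by symbol from a table of 23610 genes: the fibrillins FBN1 and FBN2, elastin (ELN), the latent TGF-beta binding proteins LTBP1 to LTBP4, the fibulin FBLN5, and the microfibril-associated proteins MFAP2 and MFAP5. All 10 were listed. They were read in 9 polyA RNA libraries of GIST-T1, which is an established human line of gastrointestinal stromal tumour (GIST), a tumour of the gut wall that usually depends on an activated KIT receptor. The libraries form 3 groups of 3, and every group is the same cell line carrying a single guide RNA (sgRNA): ETV1 sgRNA, HAND1 sgRNA, or Luciferase sgRNA as the control. The labels class the treatment as a knockdown. Not given in the sources used here are the form of Cas9, the guide sequences, the time after delivery, and whether the cells were a clone or a pool. Nor do the labels say that replicates were separate cultures, so a p-value here reflects only how these libraries vary, which may be technical. Values are FPKM, a fragment number divided by transcript length and by library size, which allows levels of different genes to be set side by side per length. In bulk RNA of this kind, fewer cells that express a gene and less RNA per cell cannot be told apart.

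Fibrillins are large cysteine-rich glycoproteins that assemble into microfibrils, the thin filaments on which elastic fibres are laid down. Elastin is secreted as the soluble precursor tropoelastin, is guided to microfibrils by fibulins, and is crosslinked there by lysyl oxidases. LTBPs share the fibrillin domain plan, and LTBP1, LTBP3 and LTBP4 tether latent TGF-beta to the matrix, so that the same scaffold stores a growth factor. In the gut wall these proteins are made by mesenchymal cells such as smooth muscle cells and fibroblasts.

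The upstream sequences of both fibrillins are printed because these paralogues differed from the control in opposite directions in the HAND1 sgRNA libraries, FBN2 without passing the test. They are the 250 bases before the RefSeq start, on the GRCh38.p14 build, at chr15:48644971-48645220 (minus strand) for FBN1 and chr5:128538246-128538495 (minus strand) for FBN2. Capitals mark matches to CANNTG, the general E-box motif of the basic helix-loop-helix family, to which HAND1 belongs. The search did not set apart the forms of this motif that HAND1 itself prefers.
FBN1: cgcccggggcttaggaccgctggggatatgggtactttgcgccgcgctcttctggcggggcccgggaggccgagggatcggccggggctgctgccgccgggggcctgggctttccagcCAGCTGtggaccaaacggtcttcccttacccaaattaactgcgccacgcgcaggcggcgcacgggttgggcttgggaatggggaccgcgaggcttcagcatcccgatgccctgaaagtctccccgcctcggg
FBN2: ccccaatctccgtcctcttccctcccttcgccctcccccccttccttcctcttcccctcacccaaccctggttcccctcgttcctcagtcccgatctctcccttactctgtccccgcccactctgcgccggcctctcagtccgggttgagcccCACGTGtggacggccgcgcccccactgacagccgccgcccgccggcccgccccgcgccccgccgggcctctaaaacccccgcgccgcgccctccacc
Each window held 1 E-box, CAGCTG in FBN1 and CACGTG in FBN2, a motif that 61.8% of all 35116 RefSeq windows of this length also held. CCGGAA, a core of ETS family sites searched on both strands, matched neither window and is in 14.5% of all windows. GGGCGG, the GC box searched on both strands, matched FBN2 at 3 places and FBN1 at 0, against 42.6% of all windows with a match. No matches of different motifs overlapped in these windows. RefSeq windows were listed for 8 of the 10 genes, 14 windows in all, of which 10 held CANNTG and 3 held CCGGAA. ELN and MFAP5 have no entry in the table used. A match is only a description of letters.

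The targeted transcripts were lower with their own sgRNA. ETV1, an ETS family transcription factor of gut pacemaker cells, averaged 11.4 ± 0.571 FPKM with ETV1 sgRNA against 39.7 ± 2.42 FPKM with Luciferase sgRNA (SD, n = 3 each). HAND1, a basic helix-loop-helix factor of mesoderm, averaged 38.3 ± 2.25 FPKM with HAND1 sgRNA against 114.2 ± 1.12 FPKM with Luciferase sgRNA. With ETV1 sgRNA HAND1 averaged 132.3 ± 2.26 FPKM and was not called against Luciferase sgRNA (log2 0.21, limma adjusted p = 0.244). ETV1 averaged 40.8 ± 0.96 FPKM with HAND1 sgRNA and was not called either (0.04, adjusted p = 0.761). The cell line was checked against markers, and all 7 GIST markers examined averaged at least 1 FPKM over the 9 libraries. Besides HAND1 itself, 3 of them fell with HAND1 sgRNA. KIT, the receptor that marks this tumour, had 156.0, 158.9 and 164.8 FPKM with HAND1 sgRNA, against 216.0, 215.1 and 196.0 FPKM with Luciferase sgRNA (log2 −0.38, limma adjusted p = 0.00335, and 0.129 with quantile normalization). PRKCQ, a kinase used as a GIST marker, averaged 3.67 FPKM with HAND1 sgRNA against 6.84 FPKM with Luciferase sgRNA (−0.75, adjusted p = 3.26e-04), and GPR20 45.1 FPKM with HAND1 sgRNA against 81.6 FPKM with Luciferase sgRNA (−0.84, adjusted p = 1.25e-04). ANO1, the chloride channel of interstitial cells of Cajal (0.04, adjusted p = 0.659), and CD34 (0.07, adjusted p = 0.652) were not called. The summed level of the 7 markers was 2171 to 2270 FPKM with HAND1 sgRNA, against 2235 to 2345 FPKM with Luciferase sgRNA. CD34 alone made up most of it, at a mean of 1762 FPKM with HAND1 sgRNA against 1680 FPKM with Luciferase sgRNA. The sum also holds ETV1 and HAND1 themselves, so it says little about the other markers. Of 16 endothelial, blood, epithelial and neural markers only CD68, a macrophage marker, averaged at least 1 FPKM over the 9 libraries. It had 5.35, 6.68 and 6.35 FPKM with HAND1 sgRNA, against 3.92, 4.75 and 3.52 FPKM with Luciferase sgRNA, without overlap (log2 0.50, limma adjusted p = 0.0466). This call ended when ETV1 sgRNA replicate 1 (0.0718), HAND1 sgRNA replicate 1, 2 or 3 (0.0551, 0.151 and 0.143) or control replicate 1 or 3 (0.110 and 0.112) was left out. Library weights (0.0533), no filter on low values (0.0991) and fitting these groups alone (0.0568) ended it too. The 5 blood markers summed to 5.35 to 8.41 FPKM with HAND1 sgRNA, against 3.79 to 5.17 FPKM with Luciferase sgRNA. With ETV1 sgRNA they summed to 5.23 to 9.55 FPKM. HBB, 1 of these 5, had 3.59, 0 and 0.678 FPKM in ETV1 sgRNA replicates 1, 2 and 3. It had 0, 1.11 and 0.387 FPKM with HAND1 sgRNA and 0 in every Luciferase sgRNA library. PTPRC, the pan-leukocyte marker, averaged 0.0202 FPKM over all libraries. The part of these marker differences in the results described here was not tested. Sequencing depth, set against that of Luciferase sgRNA replicate 1, lay between 0.637 and 0.953 in the other 8 libraries. Luciferase sgRNA replicate 3 stood apart from the other Luciferase sgRNA libraries: its median difference from them was 0.30 (log2) for transcripts under 1500 nt and −0.09 for those of 5000 nt and over. Its FPKM summed over all genes, which the main fit did not rescale, was 538700, against 451300 to 479900 in the other 8 libraries. Its own deviation from the mean of the other control libraries was −0.24 for FBN1, −0.17 for FBN2, 0.21 for ELN, 0.11 for LTBP1, −0.20 for LTBP3 and −0.26 for LTBP4, so the results below are also given without it where that changes a call.

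GIST-T1 cells expressed a part of the elastic fibre set. In the Luciferase sgRNA libraries ELN was the most abundant of the 10 genes, at 127.5 ± 11.3 FPKM, followed by FBN2 at 99.9 ± 7.39, FBN1 at 45.2 ± 4.27, LTBP3 at 24.4 ± 2.02, LTBP4 at 16.7 ± 1.79 and LTBP1 at 1.71 ± 0.119 FPKM (SD, n = 3). The ranges of neighbours in this order did not overlap down to LTBP2. By level, ELN stood in the top 5.75% and FBN2 in the top 7.88% of the 11348 genes tested, while LTBP1 stood at 93.1%. With ETV1 sgRNA the order of these 6 genes was the same. With HAND1 sgRNA, FBN1 stood below LTBP3 and its range overlapped that of LTBP4.

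The remaining 4 genes had a mean below 1 FPKM over the 9 libraries and were not tested. MFAP5, a microfibril-associated glycoprotein, was listed at 0 in 8 libraries and at 0.0521 FPKM in HAND1 sgRNA replicate 3. MFAP2, the other protein of that family, was listed at 0 in all 3 HAND1 sgRNA libraries, at 0.140, 0.887 and 0 FPKM with ETV1 sgRNA replicates 1, 2 and 3, and at 0, 0 and 0.288 FPKM with Luciferase sgRNA. FBLN5, the fibulin that carries tropoelastin to microfibrils, never exceeded 0.122 FPKM and was at 0 in 6 of 9 libraries. LTBP2, the LTBP that does not bind latent TGF-beta, was at 0.208, 0.185 and 0.197 FPKM with HAND1 sgRNA and at 0.255, 0.295 and 0.287 FPKM with ETV1 sgRNA, against 0.232, 0.404 and 0.303 FPKM with Luciferase sgRNA. The HAND1 sgRNA values of LTBP2 lay below all others. In the limma fit without the filter its difference from the control was −0.13 (log2, SE 0.051, adjusted p = 0.241), and no difference of these 4 genes reached an adjusted p of 0.05.

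**Figure D1:**
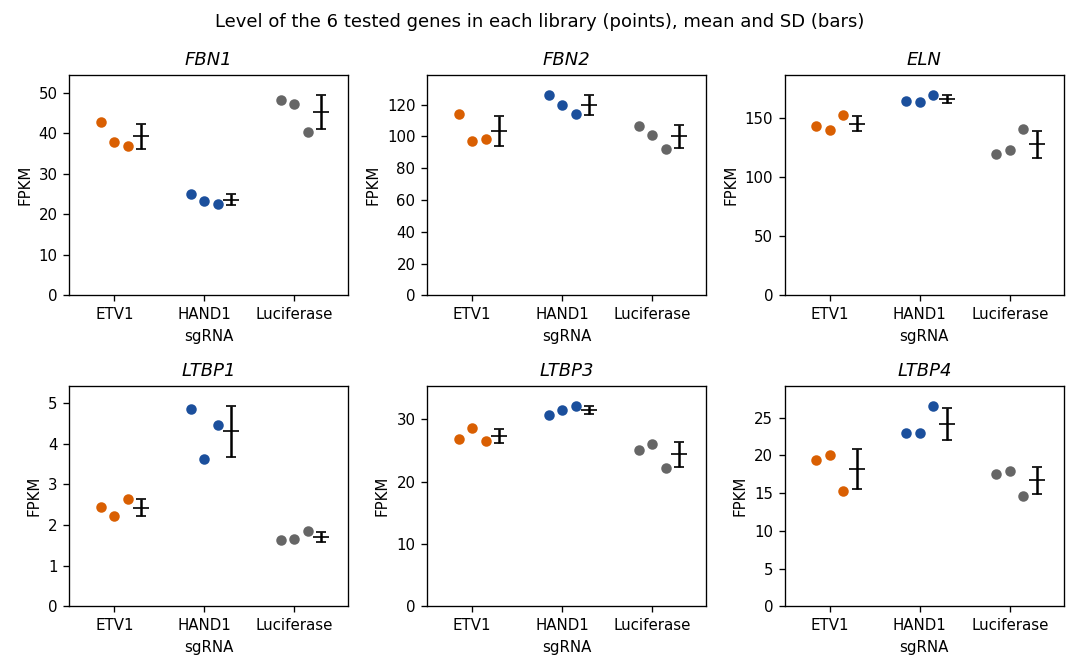
FPKM of the 6 tested genes in each library (points, 3 a group), with the group mean and SD (black bars), for ETV1, HAND1 and Luciferase sgRNA from left to right; every axis starts at 0. The 3 HAND1 sgRNA libraries lie below all others for FBN1 (22.5 to 25.1 FPKM) and above all Luciferase sgRNA libraries for the other 5 genes.

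HAND1 sgRNA against Luciferase sgRNA asks which transcripts differ when HAND1 is targeted. FBN1 fell and ELN, LTBP1, LTBP3 and LTBP4 rose, while FBN2 was higher without passing the test. Thus 4 of the 6 tested genes were called higher and 1 lower at a Benjamini-Hochberg adjusted p under 0.05, where limma called 6.6% of all 11348 genes tested, 3.67% higher and 2.93% lower. In all 6 genes the groups did not overlap, 5 higher and 1 lower, against 25.7% of all genes tested (13.0% higher and 12.7% lower). All 6 had an unadjusted p under 0.05, against 20.3% of all genes tested. The median change of the 6 genes was 0.37 (log2) and that of all genes tested −0.01. The 4 genes below the filter are outside these counts. All 10 genes were chosen with earlier results of these data known. The counts, here and in the other comparisons, therefore describe the genes and do not test them as a set.

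FBN1, the main fibrillin of adult connective tissue and the gene mutated in Marfan syndrome, had 25.1, 23.4 and 22.5 FPKM in HAND1 sgRNA replicates 1, 2 and 3, against 48.2, 47.2 and 40.3 FPKM in the Luciferase sgRNA libraries. The highest HAND1 sgRNA value was far below the lowest control value. The change was −0.90 on the scale log2(FPKM + 1) (SE 0.082, 95% confidence interval −1.09 to −0.72, limma adjusted p = 1.22e-04), or a mean lower by a ratio of 0.523. Leaving out any single library gave between −0.98 and −0.86. FBN1 was called under all 20 alternatives tried, also after each library's trend with transcript length was removed.

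FBN2, a fibrillin best known from development, had 126.1, 119.5 and 113.8 FPKM with HAND1 sgRNA, against 106.8, 101.0 and 92.1 FPKM with Luciferase sgRNA. All 3 HAND1 sgRNA values were above all control values, by a gap close to the SD within a group. The change was 0.26 (log2, SE 0.078, interval 0.09 to 0.43, limma adjusted p = 0.0821) and was not called. The adjusted p was 0.0467 with library weights and 0.0139 with the length trend removed.

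The share of FBN1 among fibrillin transcripts was lower with HAND1 sgRNA, while the sum of both fibrillins was similar in the 3 groups. FBN1 made up 16.6%, 16.4% and 16.5% of the summed FPKM of FBN1 and FBN2 in HAND1 sgRNA replicates 1, 2 and 3, and 27.3%, 28.1% and 27.3% with ETV1 sgRNA, against 31.1%, 31.9% and 30.5% with Luciferase sgRNA. No group's range overlapped another's, and the SD within a group was at most 0.697 percentage points. The share was not tested, and no background of other gene pairs was computed for it. Between ETV1 sgRNA and Luciferase sgRNA neither gene alone was called (limma adjusted p = 0.562 for FBN1 and 0.933 for FBN2). The ranges of each gene overlapped there, and 12.9% of all genes tested did not overlap in that comparison. The sum of FBN1 and FBN2 was 143 ± 7.45 FPKM with HAND1 sgRNA and 142 ± 12.6 FPKM with ETV1 sgRNA, against 145 ± 11.5 FPKM with Luciferase sgRNA (SD, n = 3), with overlapping ranges. Their longest coding transcripts are of similar length, 11756 nt for FBN1 and 11132 nt for FBN2 in GENCODE 29.

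**Figure D2:**
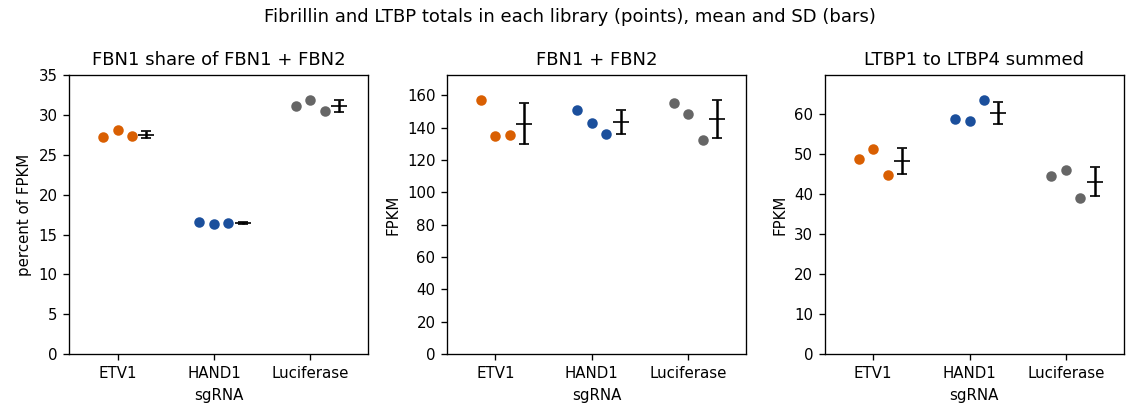
FBN1 as a percentage of the summed FPKM of FBN1 and FBN2 (left), that sum in FPKM (middle) and the summed FPKM of LTBP1 to LTBP4 (right), in each library (points) with group mean and SD (bars), for ETV1, HAND1 and Luciferase sgRNA. The FBN1 share separates all 3 groups (means 27.6%, 16.5% and 31.1%), while the fibrillin sums overlap. The share was not tested.

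ELN, which encodes the elastic core of the fibre, had 164.4, 163.4 and 169.2 FPKM with HAND1 sgRNA, against 119.3, 122.7 and 140.4 FPKM with Luciferase sgRNA. Every HAND1 sgRNA library was above every control library, of which replicate 3 was the nearest. ELN rose by 0.38 (log2, SE 0.067, interval 0.23 to 0.53, limma adjusted p = 0.00709), a ratio of means of 1.30, and without Luciferase sgRNA replicate 3 the change was 0.45 (adjusted p = 5.56e-04). Across the fits that left out 1 library it lay between 0.33 and 0.45, with limma adjusted p up to 0.0396. The ratio of ELN to FBN1, both in FPKM, was 7.03 ± 0.492 with HAND1 sgRNA, against 2.85 ± 0.548 with Luciferase sgRNA (SD, n = 3). The ratio of ELN to FBN2 was 1.39 ± 0.0928 with HAND1 sgRNA and 1.29 ± 0.213 with Luciferase sgRNA, with overlapping ranges.

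LTBP1, a carrier of latent TGF-beta, had 4.85, 3.62 and 4.46 FPKM with HAND1 sgRNA, against 1.63, 1.66 and 1.85 FPKM with Luciferase sgRNA. It showed the largest relative rise of the 6 genes, a ratio of means of 2.52, at the lowest level. The change was 0.96 (log2, SE 0.111, interval 0.72 to 1.21, limma adjusted p = 5.78e-04). Since the pseudocount of 1 is close to the level of LTBP1, the change was 1.27 with a pseudocount of 0.1 and 0.47 with a pseudocount of 5, called in both.

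LTBP3, another carrier of latent TGF-beta, had 30.8, 31.6 and 32.2 FPKM with HAND1 sgRNA, against 25.1, 26.0 and 22.1 FPKM with Luciferase sgRNA, a rise of 0.36 (log2, SE 0.066, limma adjusted p = 0.00892). Its HAND1 sgRNA values lay close together and above all controls. With 1 library left out the change lay between 0.29 and 0.40, with limma adjusted p up to 0.0451. The libraries are non-stranded, so reads where genes overlap cannot be assigned to a strand, and ELN has an antisense neighbour, ELN-AS1, which was not analysed here.

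LTBP4, which takes part in elastic fibre assembly and also binds latent TGF-beta, had 23.0, 22.9 and 26.6 FPKM with HAND1 sgRNA, against 17.5, 17.9 and 14.7 FPKM with Luciferase sgRNA. The groups did not overlap, and HAND1 sgRNA replicate 3 and Luciferase sgRNA replicate 3 lay farthest apart. LTBP4 rose by 0.51 (log2, SE 0.112, limma adjusted p = 0.0225). The call was lost when HAND1 sgRNA replicate 1, 2 or 3 was left out alone (adjusted p = 0.0541, 0.0528 and 0.0943), likewise Luciferase sgRNA replicate 3 (0.0527), and without the filter on low values (0.0541).

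Summed over the family, LTBP1 to LTBP4 came to 60.2 ± 2.81 FPKM with HAND1 sgRNA and 48.3 ± 3.29 FPKM with ETV1 sgRNA, against 43.1 ± 3.71 FPKM with Luciferase sgRNA (SD, n = 3). The HAND1 sgRNA sums lay above all the others. LTBP3 and LTBP4 together made nearly all of that sum in each group, LTBP3 at 52.4% with HAND1 sgRNA against 56.6% with Luciferase sgRNA, and LTBP4 at 40.1% with HAND1 sgRNA against 38.7% with Luciferase sgRNA. The share of LTBP1 was 7.16% with HAND1 sgRNA against 4.01% with Luciferase sgRNA.

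ETV1 sgRNA against Luciferase sgRNA asks the same for ETV1. Of the 6 tested genes, 0 were called by limma, where 0.203% of all genes tested were called (0.141% higher and 0.0617% lower), and 4 had an unadjusted p under 0.05, against 8.2% of all genes tested. The groups did not overlap for LTBP1 and LTBP3, both higher, against 6.88% of all genes tested that did so (12.9% in either direction). LTBP1 had 2.43, 2.22 and 2.63 FPKM with ETV1 sgRNA, against 1.63, 1.66 and 1.85 FPKM with Luciferase sgRNA (log2 0.34, interval 0.09 to 0.58, adjusted p = 0.425). LTBP3 had 26.8, 28.7 and 26.5 FPKM with ETV1 sgRNA, against 25.1, 26.0 and 22.1 FPKM with Luciferase sgRNA (log2 0.16, interval 0.01 to 0.31, adjusted p = 0.562). ELN had 143.0, 139.5 and 152.4 FPKM with ETV1 sgRNA, against 119.3, 122.7 and 140.4 FPKM with Luciferase sgRNA, and replicate 2 with ETV1 sgRNA lay within the control range (log2 0.19, interval 0.04 to 0.34, adjusted p = 0.482). FBN1 had 42.8, 37.9 and 37.0 FPKM with ETV1 sgRNA, against 48.2, 47.2 and 40.3 FPKM with Luciferase sgRNA, with overlapping ranges and a difference of −0.20 (interval −0.38 to −0.02, adjusted p = 0.562). FBN2 differed by 0.04 (interval −0.13 to 0.22, adjusted p = 0.933) and LTBP4 by 0.11 (interval −0.14 to 0.36, adjusted p = 0.856). The sign of FBN2 turned without ETV1 sgRNA replicate 1 (−0.029) or Luciferase sgRNA replicate 3 (−0.013).

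HAND1 sgRNA was also compared directly with ETV1 sgRNA, which tests whether the effects of the sgRNAs differ. FBN1 was lower and LTBP1 higher, and the other 4 tested genes were not called, where limma called 4.05% of all genes tested, 2.01% higher and 2.04% lower. The groups did not overlap for 4 genes that were higher and 1 that was lower, against 22.4% of all genes tested (10.9% higher and 11.5% lower), and all 6 had an unadjusted p under 0.05, against 15.4% of all genes tested. FBN1 averaged 23.6 ± 1.33 FPKM with HAND1 sgRNA against 39.2 ± 3.14 FPKM with ETV1 sgRNA (SD, n = 3 each; log2 −0.71, SE 0.082, adjusted p = 8.83e-04), and the call held under all 20 alternatives. LTBP1 averaged 4.31 ± 0.627 FPKM with HAND1 sgRNA against 2.43 ± 0.206 FPKM with ETV1 sgRNA (log2 0.63, SE 0.111, adjusted p = 0.0100), a call that ended when HAND1 sgRNA replicate 1 or 3 was left out (0.0522 and 0.0512). The differences of LTBP4 (0.40, interval 0.15 to 0.65, adjusted p = 0.0882), LTBP3 (0.20, interval 0.05 to 0.35, adjusted p = 0.155), ELN (0.19, interval 0.04 to 0.34, adjusted p = 0.180) and FBN2 (0.22, interval 0.04 to 0.39, adjusted p = 0.203) were all above 0 without passing the test. Leaving out Luciferase sgRNA replicate 3, which enters this comparison only through the shared estimate of spread, ELN (adjusted p = 0.0394) and LTBP4 (0.0489) were also called, 4 genes in all. The 3 comparisons share libraries, so they are not independent of each other.

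**Figure D3:**
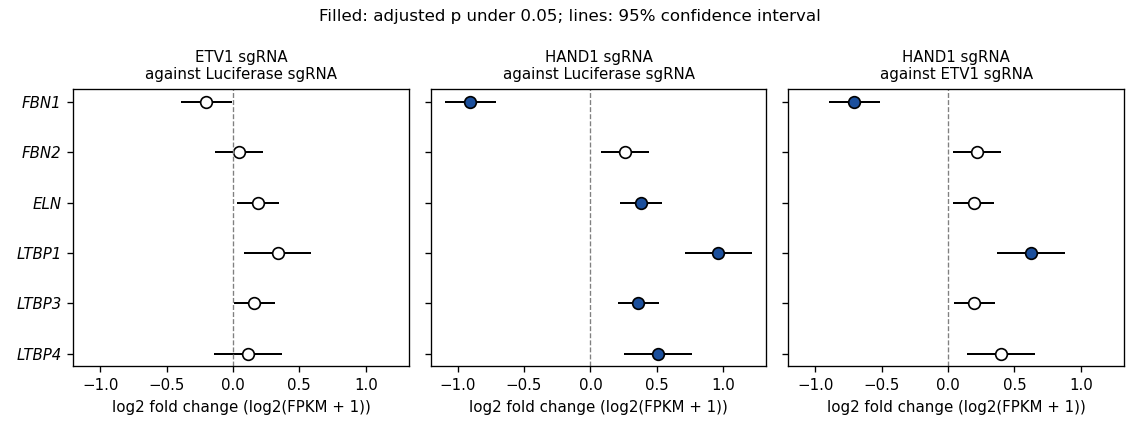
Log2 fold change of the 6 tested genes on the log2(FPKM + 1) scale, the first-named sgRNA over the second, with 95% confidence intervals (lines); filled points passed an adjusted p of 0.05 in limma. FBN1 lies left of 0 in all 3 panels (−0.20, −0.90 and −0.71) and LTBP1 right of 0 (0.34, 0.96 and 0.63), and in the ETV1 sgRNA panel no point is filled.

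The other genes of elastic fibre formation and breakdown were followed in 5 lists, 76 symbols in all, of which 72 were in the table and 41 were tested. The lists were chosen with earlier results of these data known, so the counts below describe them and are no test. The symbols not found, ADAMTSL6, NRROS, CTSL and CTSV, are other names of THSD4, LRRC33, CTSL1 and CTSL2, which were in the table. With HAND1 sgRNA 12 of the 41 rose and 1 fell against Luciferase sgRNA, beside the background of 3.67% and 2.93% above, and their median change was 0.12 (log2) against −0.01 for all genes tested. The number called there lay between 9 and 14 with a library left out. It lay between 9 and 19 under the other alternatives, some of which change the filter and so the number tested. With ETV1 sgRNA limma called 0 of the 41, where 0.203% of all genes tested were called. An unadjusted p under 0.05 was found for 9, against 8.2% of all genes tested, and the median change was 0.07 against −0.01 for all genes.

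Among fibulins and emilins 2 of 6 tested genes rose with HAND1 sgRNA and 0 fell (median 0.20). Limma called 3.67% of all genes tested higher and 2.93% lower (median −0.01). EFEMP1 (fibulin-3) had 5.11, 6.20 and 5.75 FPKM with HAND1 sgRNA against 2.27, 2.91 and 2.68 FPKM with Luciferase sgRNA (log2 0.89, limma adjusted p = 0.00159). EFEMP2 (fibulin-4), which brings lysyl oxidase to tropoelastin, had 3.65, 4.35 and 3.79 FPKM with HAND1 sgRNA against 2.14, 1.86 and 2.24 FPKM with Luciferase sgRNA (0.68, adjusted p = 0.0160). Leaving out HAND1 sgRNA replicate 2 or 3 ended the call of EFEMP2 (adjusted p = 0.0694 and 0.0526), as did leaving out Luciferase sgRNA replicate 2 (0.0641). EMILIN1, an elastin microfibril interface protein and the most abundant gene of these lists, was at 767 FPKM with HAND1 sgRNA against 771 FPKM with Luciferase sgRNA (0.01, adjusted p = 0.983). Luciferase sgRNA replicates 1, 2 and 3 had 675.9, 709.5 and 927.0 FPKM, against 731.8 to 794.9 FPKM with HAND1 sgRNA. The closeness of the means thus rests on replicate 3.

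Of the crosslinking and processing enzymes 3 of 10 rose with HAND1 sgRNA, all lysyl oxidase-like enzymes, and 0 fell (median 0.05). The shares over all genes tested were 3.67% called higher and 2.93% called lower (median −0.01). LOXL1, which is needed for elastic fibre upkeep in mice, averaged 24.5 FPKM with HAND1 sgRNA against 16.0 FPKM with Luciferase sgRNA (log2 0.59, limma adjusted p = 0.00290). LOXL3 averaged 32.4 FPKM with HAND1 sgRNA against 25.4 FPKM with Luciferase sgRNA (0.34, adjusted p = 0.0203), and LOXL4 averaged 4.43 FPKM with HAND1 sgRNA against 3.14 FPKM with Luciferase sgRNA (0.39, adjusted p = 0.0229). LOXL2 was lower without passing the test, at 5.85 FPKM with HAND1 sgRNA against 7.91 FPKM with Luciferase sgRNA (−0.38, adjusted p = 0.0772), and LOX itself, the founding lysyl oxidase, had a mean of 0.0936 FPKM and was not tested. Leaving out HAND1 sgRNA replicate 1 or 3 ended the call of LOXL3 (adjusted p = 0.0759 and 0.0827), as did leaving out control replicate 1 or 2 (0.0671 and 0.0540) or fitting these groups alone (0.0587). For LOXL4 the same held of HAND1 sgRNA replicate 1 or 3 (0.0725 and 0.0974), of control replicate 2 or 3 (0.0585 and 0.0744) and of fitting these groups alone (0.0517).

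Of 9 other microfibril-associated proteins BGN, the proteoglycan biglycan, rose with HAND1 sgRNA, to 15.5 FPKM against 9.18 FPKM with Luciferase sgRNA (log2 0.70, limma adjusted p = 5.09e-04), and 0 fell (median 0.04). Over all genes tested 3.67% were called higher and 2.93% lower (median −0.01). MFAP4, a microfibril-associated protein abundant in these cells, was at 510 FPKM with HAND1 sgRNA against 476 FPKM with Luciferase sgRNA (0.10, adjusted p = 0.397). ADAMTSL3 was at 6.98 FPKM with HAND1 sgRNA against 9.27 FPKM with Luciferase sgRNA (−0.37, adjusted p = 0.0554) and FN1, fibronectin, at 37.6 FPKM with HAND1 sgRNA against 32.1 FPKM with Luciferase sgRNA (0.23, adjusted p = 0.0587).

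Of 8 tested ligands and activators of latent TGF-beta 2 rose with HAND1 sgRNA and 0 fell (median 0.20). Among all genes tested 3.67% were called higher and 2.93% lower (median −0.01). TGFB3, a TGF-beta ligand, averaged 4.64 FPKM with HAND1 sgRNA against 2.46 FPKM with Luciferase sgRNA (log2 0.70, limma adjusted p = 0.00610). THBS1, thrombospondin-1, which can activate latent TGF-beta, averaged 157.5 FPKM with HAND1 sgRNA against 83.3 FPKM with Luciferase sgRNA (0.91, adjusted p = 1.81e-05). TGFB1, the most abundant ligand, was at 60.3 FPKM with HAND1 sgRNA against 58.8 FPKM with Luciferase sgRNA (0.04, adjusted p = 0.806). The mean of TGFB2 was 0.0406 FPKM and it was not tested.

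Of 8 tested elastin degrading enzymes and inhibitors 4 rose and 1 fell with HAND1 sgRNA (median 0.26). For all genes tested the shares called were 3.67% higher and 2.93% lower (median −0.01). The inhibitors TIMP1 (log2 0.31, limma adjusted p = 0.00693), TIMP2 (0.57, adjusted p = 5.77e-04) and TIMP3 (0.54, adjusted p = 1.18e-04) rose, as did MMP2, a gelatinase (0.23, adjusted p = 0.0247). CTSL1, the protease cathepsin L, fell to 115 FPKM with HAND1 sgRNA against 264 FPKM with Luciferase sgRNA (−1.19, adjusted p = 1.87e-06), and its reads may be shared with pseudogenes of the same family. The call of MMP2 was lost when HAND1 sgRNA replicate 1, 2 or 3 was left out alone (adjusted p = 0.0885, 0.0516 and 0.109), likewise Luciferase sgRNA replicate 1 (0.0628) or 2 (0.0874) and with these groups fitted alone (0.0738).

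**Figure D4:**
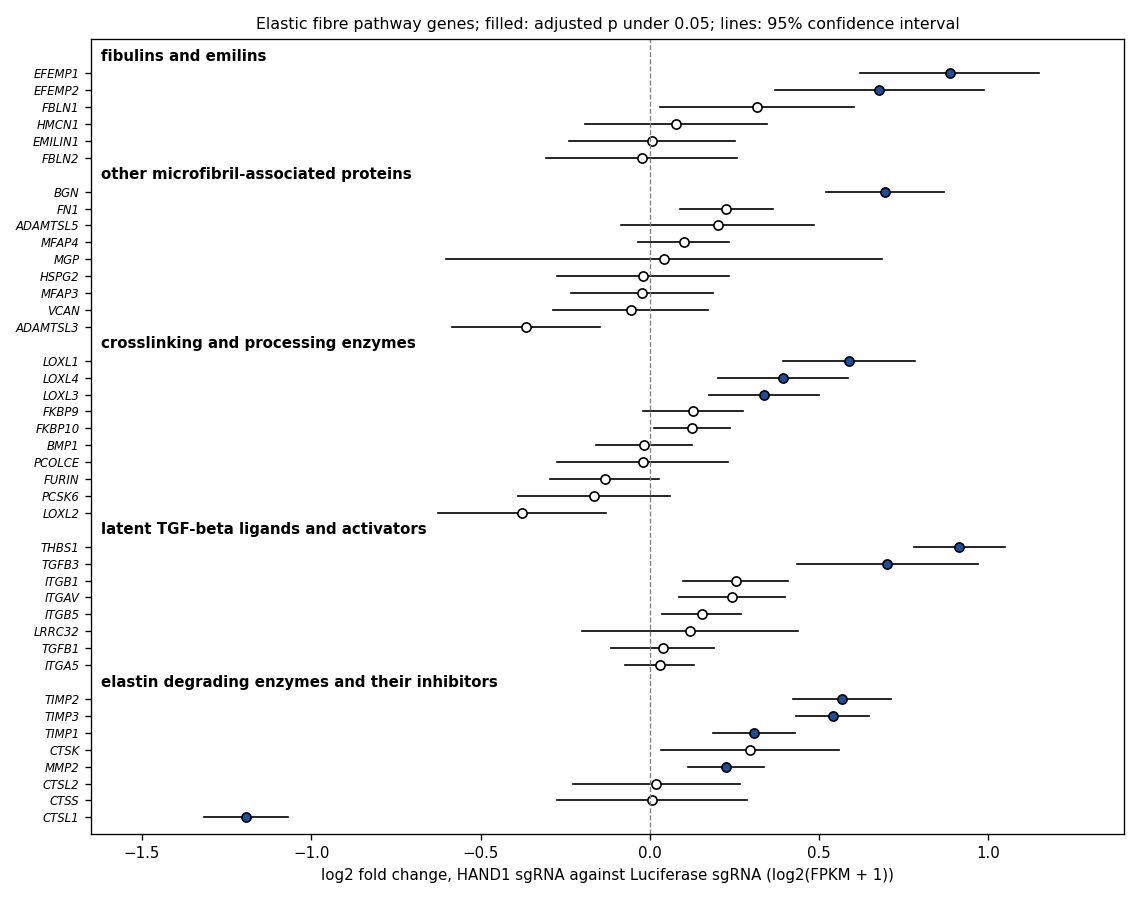
Log2 fold change of the 41 tested elastic fibre pathway genes, HAND1 sgRNA over Luciferase sgRNA on the log2(FPKM + 1) scale, by list, with 95% confidence intervals (lines); filled points passed an adjusted p of 0.05 in limma. CTSL1 (−1.19) is the only filled point left of 0, and THBS1 (0.91) and EFEMP1 (0.89) lie farthest right.

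Between HAND1 sgRNA and ETV1 sgRNA limma called 8 of the 41 pathway genes higher and 1 lower, against 2.01% and 2.04% of all genes tested. The median change was 0.11, against 0.00 for all genes. THBS1 (log2 0.79, adjusted p = 5.26e-05), TIMP2 (0.38, adjusted p = 0.00893), TIMP3 (0.36, adjusted p = 0.00242) and, in the other direction, CTSL1 (−1.05, adjusted p = 4.25e-06) kept their call under all 20 alternatives. EFEMP1 (0.66, adjusted p = 0.0116) lost it without ETV1 sgRNA replicate 1 (0.0537) or 3 (0.0518) and HAND1 sgRNA replicate 2 (0.0586) or 3 (0.0517), and BGN (0.42, adjusted p = 0.0131) without ETV1 sgRNA replicate 1 (0.0535) or 3 (0.0556) and HAND1 sgRNA replicate 3 (0.0661). The calls of TGFB3 (0.51, adjusted p = 0.0425), LOXL4 (0.38, adjusted p = 0.0398) and FKBP9, a prolyl isomerase (0.30, adjusted p = 0.0345), were each lost under at least 9 of their alternatives, with adjusted p up to 0.155, 0.156 and 0.133. Among these, TGFB3 held only without ETV1 sgRNA replicate 2, HAND1 sgRNA replicate 3 or Luciferase sgRNA replicate 3, FKBP9 only without ETV1 sgRNA replicate 3 or Luciferase sgRNA replicate 1 or 3, and LOXL4 only without Luciferase sgRNA replicate 3, of the 9 fits that leave out a library. Those 9 fits called between 4 and 12 pathway genes, 4 without ETV1 sgRNA replicate 1, 12 with Luciferase sgRNA replicate 3 left out, and 5 without ETV1 sgRNA replicate 3 or HAND1 sgRNA replicate 3.

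For each called gene, the genes with the most similar profile over the 9 libraries were found by the root mean square difference of log2(FPKM + 1), each gene centred on its own mean. Nearest to FBN1 were GPR20, an orphan receptor of interstitial cells of Cajal (difference 0.08), MYO6, a myosin (0.08), and ITGA4, an integrin subunit (0.09). GPR20 averaged 45.1 FPKM with HAND1 sgRNA and 77.8 FPKM with ETV1 sgRNA, against 81.6 FPKM with Luciferase sgRNA. Nearest to ELN were STRA6, a retinol transporter (0.05), ADCYAP1R1, the PACAP receptor (0.06), and COL9A1, a collagen (0.06). LTBP1 was nearest to SVEP1, a large matrix protein (0.10), SOD3, extracellular superoxide dismutase (0.11), and GFRA3, a neurotrophic factor receptor (0.12). LTBP3 was nearest to MARVELD1, TRIM62 and WWTR1, the YAP paralogue TAZ (0.04 each), and LTBP4 to CLK1, a splicing kinase (0.07), NLGN1 (0.08) and FRMPD4 (0.08).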

How the data were processed

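The 9 libraries are polyA RNA from an RNeasy Plus extraction, prepared with a non-stranded NEBNext Ultra II kit and sequenced on a NovaSeq6000, per the labels' protocols. The tools STAR and Cufflinks and the build hg19 are listed with no version, per the submitters' processing notes. Annotation and the scaling between libraries were not given in the sources used here. Values were deposited by the authors as FPKM, 1 value per gene symbol and library; these are not counts, no read depth is given, and values below 1e-06 were read as 0 (6473 genes were 0 throughout).

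The 11348 genes averaging 1 FPKM or more were tested on log2(FPKM + 1) with limma 3.58.1 in R 4.3.3, group as the only term, all 9 libraries and an intensity trend (6 residual and 4.15 prior degrees of freedom), two-sided, with Benjamini-Hochberg adjustment over all genes tested. The scale understates changes of low genes. The script was tested on simulated data. The 10 genes and the pathway lists were chosen with earlier results of these data known. The text names the 10 genes, ETV1 and HAND1, the called pathway genes, other genes of those lists chosen after their values were seen, for their level or as examples that were not called, and the 3 nearest genes of each called gene. Replicate numbers were not taken as pairs: same-numbered libraries had correlations of deviations between −0.15 and 0.14, 2 of 9 over 0.1. Relative depth was read from the most frequent ratio of low values. Transcript lengths (GENCODE 29) were found for 97.7% of genes tested. Alternatives were pseudocounts of 0.1 and 5, no filter or a 5 FPKM minimum, quantile normalization, centring on the median of genes above 10 FPKM, library weights, a fit with no trend, a fit of each pair of groups alone, a replicate block, each library left out, and, chosen after seeing the data, removal of the length trend.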

Additional observations from a re-analysis of the deposited data

How the results depend on the processing

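Of the 10 genes, FBN1, ELN, LTBP1 and LTBP3 kept their direction and call against Luciferase sgRNA with HAND1 sgRNA under every alternative that tested them (LTBP1 is not tested at a minimum of 5 FPKM), and the count called there lay between 4 and 6 of the tested genes. With ETV1 sgRNA the count was 0 under all alternatives. Between HAND1 sgRNA and ETV1 sgRNA 2 genes were called; 1 was called at a minimum of 5 FPKM, where LTBP1 is not tested, and between 1 and 4 when a library was left out. Pathway genes called in that comparison numbered 9, and between 4 and 12 with a library left out. With library weights ELN was not called there and LTBP4 was (adjusted p = 0.0468), and with quantile normalization ELN was (0.0243). With the length trend removed, an alternative chosen after seeing the data, LTBP4 was called there (0.0488).

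For ETV1 sgRNA against Luciferase sgRNA, the log2 change of FBN2 (0.044 with all libraries) lay between −0.029, without ETV1 sgRNA replicate 1, and 0.093 with a library left out, and was −0.013 without Luciferase sgRNA replicate 3. That of LOXL4 (0.019) lay between −0.028, without Luciferase sgRNA replicate 3, and 0.046, and was −0.011 with library weights; none of these was called, and the cause was not tested. With the replicate block 6 of the 6 tested genes, FBN2 among them (adjusted p = 0.0309), and 12 of 41 pathway genes were called with HAND1 sgRNA against Luciferase sgRNA, where 5.57% of all genes tested were called. LOXL4 (0.0517) and MMP2 (0.0529) were then not called. With ETV1 sgRNA the block gave 0 and 0 (0.141% of all genes), and between HAND1 sgRNA and ETV1 sgRNA 2 and 6 (3.21%), where LOXL4 (0.0841), FKBP9 (0.0725) and TGFB3 (0.0759) were not called. Of 18 library and group combinations, 7 correlated best with their own number. Without read counts, the counting error of low values such as those of MFAP2, MFAP5, FBLN5 and LTBP2 is unknown.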
